A study of Mus musculus with 24 samples.

Results

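The mature miRNAs of 5 hairpins of the miR-506 family (miR-741, miR-742, miR-743a, miR-743b and miR-878) were followed in spermatocytes and round spermatids of Ago413 mutant mice. Both arms of each hairpin are listed in the count table, so the members are 10 of its 1978 mature miRNAs: mmu-miR-741-5p, mmu-miR-741-3p, mmu-miR-742-5p, mmu-miR-742-3p, mmu-miR-743a-5p, mmu-miR-743a-3p, mmu-miR-743b-5p, mmu-miR-743b-3p, mmu-miR-878-5p and mmu-miR-878-3p. They were chosen by name, as testis-enriched members of the family, with earlier results of these data known. All 10 reached 10 counts in 3 or more libraries of each cell type, the condition for being tested. For mmu-miR-742-5p none of these was an Ago413-/- library. Small RNA was sequenced in 24 libraries, 4 for each of 6 groups: pachytene/diplotene spermatocytes (SP) and round spermatids (RS) of Ago413+/+, Ago413+/- and Ago413-/- males on a C57BL/6J background, aged 10 to 15 weeks. The Ago413 deletion is constitutive. It removes Ago1 entirely and Ago3 and Ago4 in part, and it leaves Ago2, so every group retains an Argonaute gene. Cells of each fraction came from pooled testes of 2 to 5 mice and were enriched on a BSA density gradient to a purity above 70%, so other cells of the testis remain in every library. The labels do not say whether same-numbered libraries share mice or whether libraries of a group came from separate pools, so p-values measure the spread between these libraries. Loss of the Argonaute genes cannot be checked in miRNA counts.

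A miRNA hairpin is cut by Drosha and Dicer into a short duplex whose strands come from the 5′ arm (5p) and the 3′ arm (3p). An Argonaute protein takes up a strand and is guided by its seed, bases 2 to 8, to matching mRNAs, while the other strand is usually degraded. The miR-506 family lies in clusters on the X chromosome and is expressed mainly in the testis, in germ cells during and after meiosis.

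The 5 hairpins lie on the minus strand of chromosome X within 24.829 kb (build GRCm38.p6, chrX:66776757-66801585), in an intergenic region. In the direction of transcription they come in the order miR-878 (chrX:66801508-66801585), miR-741 (chrX:66796805-66796875), miR-742 (chrX:66780373-66780437), miR-743b (chrX:66777256-66777332) and miR-743a (chrX:66776757-66776818). The span holds 10 miRNA genes, the 5 others being miR-880, miR-463, miR-471, miR-883b and miR-883a of the same family. None of the 5 hairpins followed here overlaps another gene. The nearest protein-coding genes are Slitrk2, 115.364 kb away on the side of the lower coordinates, and Gm1140, 881.315 kb away on the other side.

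The mature sequences are shown because the arms of a hairpin differed in level and because miR-743a and miR-743b are near copies. They are the RefSeq entries of GRCm38.p6, which matched all 10 members, written 5′ to 3′ with the seed in capitals.
mmu-miR-741-5p: uACGUAGAuugguaccuaucaug
mmu-miR-741-3p: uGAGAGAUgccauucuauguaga
mmu-miR-742-5p: uACUCACAugguugcuaauca
mmu-miR-742-3p: gAAAGCCAccaugcuggguaaa
mmu-miR-743a-5p: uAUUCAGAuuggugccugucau
mmu-miR-743a-3p: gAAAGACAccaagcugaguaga
mmu-miR-743b-5p: uGUUCAGAcugguguccauca
mmu-miR-743b-3p: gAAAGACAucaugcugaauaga
mmu-miR-878-5p: uAUCUAGUuggaugucaagaca
mmu-miR-878-3p: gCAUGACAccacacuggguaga
The only seed shared among the members is that of mmu-miR-743a-3p and mmu-miR-743b-3p. No other mature miRNA of the RefSeq table carries it. mmu-miR-743a-5p has the seed of mmu-miR-871-5p, another family member, and mmu-miR-743b-5p has that of mmu-miR-6948-5p, which was counted too rarely to enter the tests. The other 6 members each have a seed of their own. Counted from 1 at the 5′ end, the 3p arm of miR-743a differs from that of miR-743b by C9U, A12U and G18A, all outside the seed, so 19 of 22 positions are the same. The 5p arms differ by A2G, U9C, C15U, U17C and G18A, of which A2G lies in the seed, and 16 of 21 positions are the same. How the counting treated reads that match both of these hairpins is not given in the sources used here, and the split of counts between miR-743a and miR-743b is uncertain to that extent. The 3p arms of miR-742 and miR-878 are also close to mmu-miR-743a-3p (18 and 17 of 22 positions, compared from the 5′ end without a shift). Compared in the same way, mmu-miR-741-3p shares 4 of 22. It starts with a u before its first g, where the 3p arms of the other hairpins followed here start with g. The count without a shift therefore does not show how alike mmu-miR-741-3p and mmu-miR-743a-3p are, and a shifted comparison was not made.

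Library totals ran from 182904 to 1072637 counts. The smallest library, Ago413-/- SP replicate 2, stood apart: 113 of 450 miRNAs had no count there against at most 21 in any other library, and its mean correlation of log2 CPM (library-scaled read counts) with the other SP libraries was 0.865 against 0.94 to 0.95 for the rest. Among the RS libraries, Ago413+/+ replicates 1 and 2 departed from the other RS libraries along the GC content of the miRNAs, by 0.27 and 0.19 log2 units per 10% GC, while the other 10 lay between -0.18 and 0.04. The germ cell miRNAs miR-34b-5p, miR-34c-5p and miR-449a-5p summed to between 18751 and 186145 CPM, so germ cell miRNAs were counted in every library. The list covers meiotic and postmeiotic germ cells alike, so it does not check the SP or RS label.

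In Ago413+/+ SP, mmu-miR-741-3p was the most abundant member, at 18283 ± 2152 CPM (mean ± SD, n = 4; counts scaled by TMM over the 24 libraries), rank 16 among all miRNAs. mmu-miR-743a-3p followed at 9172 ± 658 CPM and mmu-miR-743b-3p at 8850 ± 952 CPM, and these levels overlapped between libraries. mmu-miR-878-5p had 2569 ± 330 CPM and mmu-miR-743a-5p 2130 ± 251 CPM, again overlapping. mmu-miR-743b-5p had 1406 ± 182 CPM, below every value of mmu-miR-743a-5p, and overlapped with mmu-miR-878-3p at 1088 ± 306 CPM. Far below came mmu-miR-741-5p at 234 ± 24.8 CPM and the arms of miR-742, mmu-miR-742-3p at 49.2 ± 14.6 CPM and mmu-miR-742-5p at 42.5 ± 14.4 CPM. The order spans a range from rank 16 to rank 292. These levels order sequenced reads and not molecules.

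The dominant arm differed between the hairpins. The 5p arm made up 1.27% ± 0.136 of the miR-741 reads in Ago413+/+ SP, 13.7% ± 1.39 of those of miR-743b and 18.9% ± 2.65 of those of miR-743a (SD, n = 4). miR-878 was the only 1 of the 5 with mostly 5p reads, at 70.4% ± 6.98, and miR-742 was near parity at 46.5% ± 15.5.

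**Figure D1:**
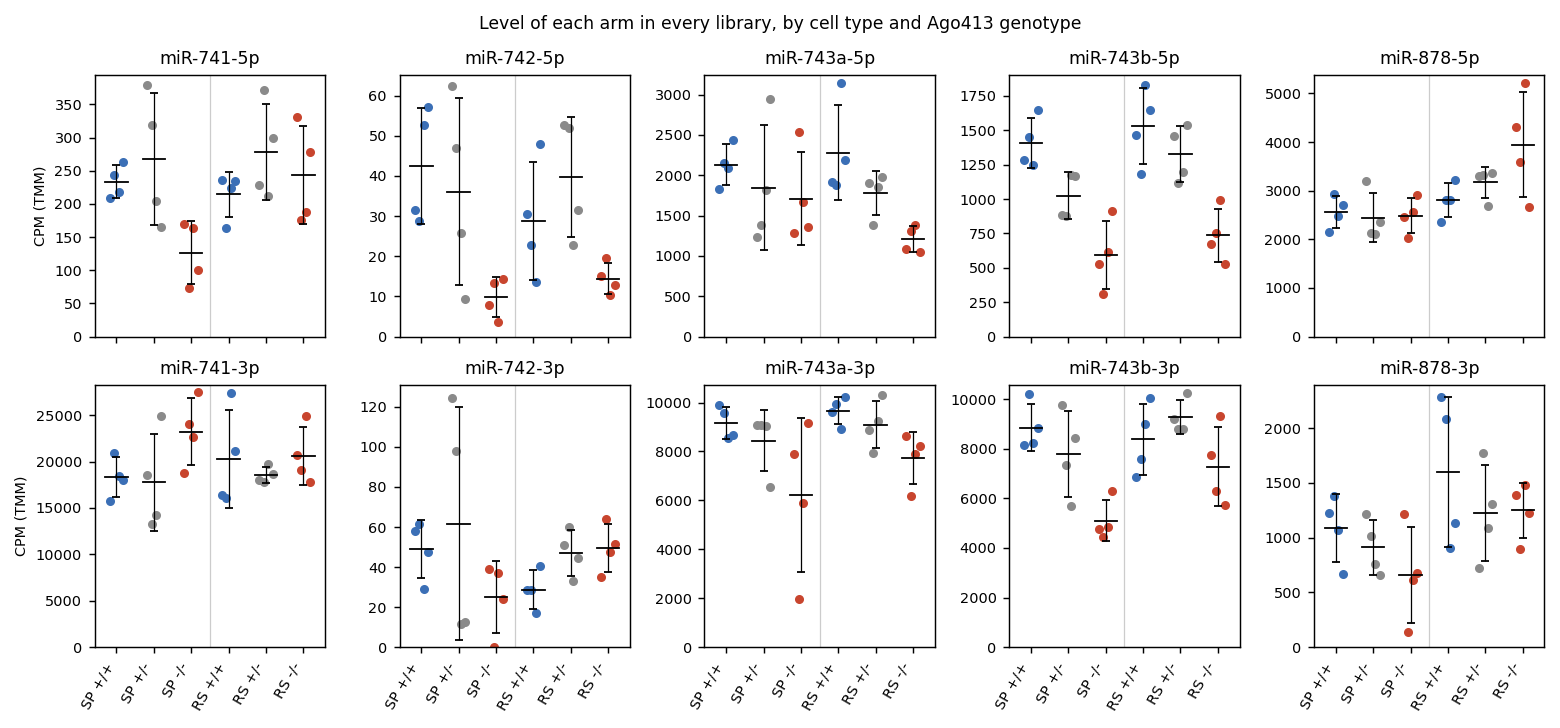
Level of each arm in CPM (TMM, linear axis from 0) in the 24 libraries. Points are libraries in replicate order, black lines the mean ± SD of 4 libraries, blue Ago413+/+, grey Ago413+/- and red Ago413-/-. mmu-miR-743b-5p of Ago413-/- lies below Ago413+/+ in both cell types, and mmu-miR-741-3p does not.

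In Ago413+/+ RS the members stood close to their SP levels. mmu-miR-741-3p had 20253 ± 5283 CPM, mmu-miR-743a-3p 9673 ± 553 CPM, mmu-miR-743b-3p 8376 ± 1423 CPM and mmu-miR-878-5p 2801 ± 350 CPM. Between the cell types of Ago413+/+ the log2 difference, RS over SP, ran from -0.73 (mmu-miR-742-3p) to 0.56 (mmu-miR-878-3p), with standard errors of 0.22 to 0.56. None of the 10 members passed the test (edgeR quasi-likelihood, which asked for an adjusted p under 0.05 together with a log2 fold change of 1 or more in size), none had an unadjusted p under 0.05, and 0 of all 450 miRNAs passed, 0%, with 10 of 450 at an unadjusted p under 0.05. DESeq2 also passed 0 of 450. Together the members took 4.70% ± 0.344 of all counts in Ago413+/+ SP and 4.59% ± 0.360 in Ago413+/+ RS (SD, n = 4), within a family that took 29.7% ± 2.35 and 31.3% ± 1.34. The ratio of the arms passed in 0 of 116 hairpins between the cell types, 0%, members included.

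In spermatocytes, the question was whether loss of the 3 Argonaute genes changes these X-linked miRNAs during meiosis. mmu-miR-743b-5p fell, and it was the only member that passed the test. It had 1286, 1448, 1244 and 1646 CPM in the 4 Ago413+/+ SP libraries and 531, 313, 615 and 915 CPM in the 4 Ago413-/- SP libraries. The groups did not overlap. The log2 fold change was -1.26 ± 0.34 (SE; edgeR quasi-likelihood test, adjusted p = 0.0416), a fold of 0.419. Over all miRNAs, 18 of 404 passed, 4.46%, and 13 of 404 passed as lower, 3.22%, against 1 of the 10 members. When single libraries were left out in turn, the call did not hold in 6 of 8 fits, those without any 1 Ago413+/+ SP library or without Ago413-/- SP replicate 1 or 3 (edgeR adjusted p 0.0570 to 0.0884 in these 6). It was kept without Ago413-/- SP replicate 2, at a log2 fold change of -1.06 and an adjusted p of 0.0461. Here and below, a lower count in bulk RNA can come from fewer cells of a type or from less RNA per cell, and these cannot be told apart.

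The 3p arm of the same hairpin, mmu-miR-743b-3p, had 8144, 10196, 8212 and 8850 CPM in Ago413+/+ SP and 4758, 4460, 4842 and 6306 CPM in Ago413-/- SP. The groups did not overlap, and the log2 fold change was -0.81 ± 0.27 (edgeR adjusted p = 0.0873), or -0.76 without replicate 2. For its near copy, mmu-miR-743a-3p, the Ago413-/- SP libraries had 7911, 1986, 5876 and 9165 CPM against 8557 to 9901 CPM in Ago413+/+. The lowest of these is replicate 2. The log2 fold change was -0.56 ± 0.37 with it (edgeR adjusted p = 0.374) and -0.28 without it. mmu-miR-743a-5p ranged from 1281 to 2533 CPM in Ago413-/- SP and from 1828 to 2440 CPM in Ago413+/+, with a log2 fold change of -0.33 ± 0.34, or -0.60 without replicate 2. Where the reads of miR-743a and miR-743b were summed per arm, the log2 fold changes were -0.60 for 5p (edgeR adjusted p = 0.226) and -0.65 for 3p (adjusted p = 0.159), and neither passed. The sum adds the more abundant mmu-miR-743a arms, so it does not show how far the call of mmu-miR-743b-5p rests on the split of reads.

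mmu-miR-742-5p had the lowest fold change of the members, on few counts. The Ago413+/+ SP libraries held 19, 21, 45 and 18 counts of it and the Ago413-/- SP libraries 3, 2, 1 and 3. No Ago413-/- SP library reached the 10 counts of the filter, so it entered the test only through libraries of the other genotypes. All values of Ago413-/- lay below all values of Ago413+/+. Pooled over libraries and scaled by their effective sizes, Ago413+/+ had 4.63 times the level of Ago413-/- (103 against 9 counts, 95% interval 2.35 to 10.4, counting error only). The fitted log2 fold change was -2.17 ± 0.64 (edgeR adjusted p = 0.0693). It passed both thresholds with DESeq2 (-2.24, adjusted p = 0.0188), with library totals in place of TMM (-2.39, edgeR adjusted p = 0.0453) and without the filter on low counts (-2.28, edgeR adjusted p = 0.0282). mmu-miR-742-3p had 35, 45, 25 and 15 counts in Ago413+/+ SP and 15, 0, 10 and 5 in Ago413-/- SP (the 0 is replicate 2, where a count of 0 allows up to 3). Its log2 fold change was -0.87 ± 0.76. Without replicate 2 the log2 fold changes were -2.33 for mmu-miR-742-5p and -0.54 for mmu-miR-742-3p.

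The arms of miR-741 had log2 fold changes of opposite sign in spermatocytes, and neither passed the test. mmu-miR-741-3p had 15713, 20970, 18398 and 18050 CPM in Ago413+/+ SP and 18721, 24078, 22648 and 27476 CPM in Ago413-/- SP, a log2 fold change of 0.34 ± 0.27 (edgeR adjusted p = 0.486). mmu-miR-741-5p had 209, 244, 218 and 264 CPM against 169, 73.3, 163 and 101 CPM, a log2 fold change of -0.88 ± 0.37 (edgeR adjusted p = 0.153). The 3p values overlap between genotypes and the 5p values do not. Without replicate 2 the log2 fold changes of the arms were 0.30 (3p) and -0.70 (5p). For miR-878 the log2 fold changes were -0.06 ± 0.28 (5p, or 0.019 without replicate 2) and -0.71 ± 0.48 (3p). mmu-miR-878-3p had 140 CPM in Ago413-/- SP replicate 2 and 615 to 1214 CPM in the other 3, and its log2 fold change without replicate 2 was -0.39.

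Of the 10 members, 9 had a log2 fold change below 0 in Ago413-/- SP and the median was -0.76, where 206 of all 404 miRNAs were below 0 with a median of -0.05. Without replicate 2, 8 of the 10 were below 0 with a median of -0.57, against 202 of 403 miRNAs. In 4 of the 10 (mmu-miR-741-5p, mmu-miR-742-5p, mmu-miR-743b-3p and mmu-miR-743b-5p) the genotypes did not overlap, as in 80 of all 404 miRNAs, 19.8%. Without replicate 2, with fewer libraries to overlap, the counts were 5 of the 10 members and 111 of 403 miRNAs, 27.5%. The summed share of counts was 3.68% ± 0.561 in Ago413-/- SP against 4.70% ± 0.344 in Ago413+/+ SP (SD, n = 4), and the ranges were 2.92% to 4.26% and 4.39% to 5.02%. Without replicate 2 the mean in Ago413-/- SP was 3.93%. The summed germ cell markers ranged from 18751 to 78881 CPM in Ago413-/- SP and from 58090 to 112119 CPM in Ago413+/+ SP, and 0 of the 3 passed. The low value is replicate 2, and the other 3 Ago413-/- SP libraries had 59058 to 78881 CPM. The part of this difference in the members' values was not tested.

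**Figure D2:**
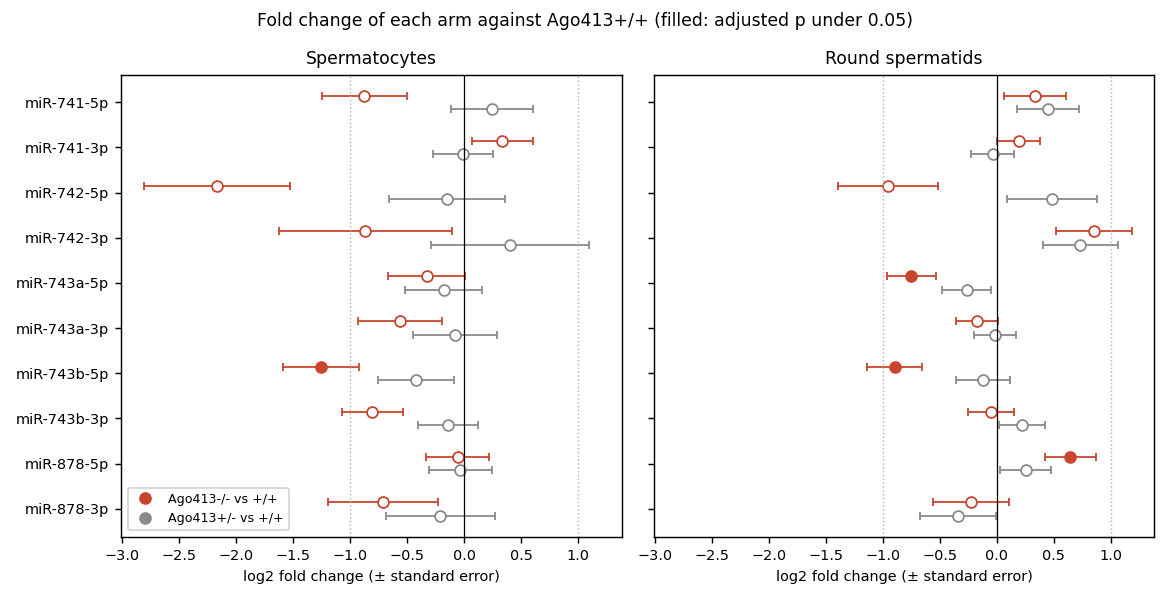
Log2 fold change ± standard error of each arm against Ago413+/+ in spermatocytes (left) and round spermatids (right). Red is Ago413-/- and grey Ago413+/-, filled points have an adjusted p under 0.05 and dotted lines mark a log2 fold change of 1 in either direction. Filled points are mmu-miR-743b-5p in both cell types and mmu-miR-743a-5p and mmu-miR-878-5p in round spermatids.

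In round spermatids, none of the 10 members passed both thresholds, where 69 of 426 miRNAs did, 16.2%, with 37 of 426 lower, 8.69%. On the adjusted p alone, 3 members were under 0.05, against 101 of 426, 23.7%: the 5p arms of miR-743b and miR-743a, which were lower, and that of miR-878, which was higher. mmu-miR-743b-5p had 1463, 1184, 1829 and 1649 CPM in Ago413+/+ RS and 676, 750, 993 and 526 CPM in Ago413-/- RS, with no overlap. Its log2 fold change was -0.90 ± 0.24 (edgeR adjusted p = 0.0134). It passed both thresholds when Ago413+/+ RS replicate 1 or 2 or Ago413-/- RS replicate 3 was left out (log2 fold change -1.14, -1.18 and -1.09), with library totals in place of TMM (-1.15), with the GC trend removed (-1.004) and with only Ago413+/+ RS replicates 3 and 4 as controls (-1.25).

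mmu-miR-743a-5p had 1911, 1882, 3143 and 2186 CPM in Ago413+/+ RS and 1092, 1315, 1379 and 1050 CPM in Ago413-/- RS, again without overlap. The log2 fold change was -0.75 ± 0.22 (edgeR adjusted p = 0.0191), and it passed both thresholds without Ago413+/+ RS replicate 1 (-1.06) or 2 (-1.02), with replicates 3 and 4 alone (-1.15) and with the GC trend removed (-1.04). Without Ago413+/+ RS replicate 3 the adjusted p was 0.0628. The summed 5p reads of miR-743a and miR-743b had a log2 fold change of -0.999 (edgeR adjusted p = 0.00527), and this sum is not affected by how reads were split between the hairpins. The sum lies below both of its parts because TMM was computed again in that fit. The median over all miRNAs was -0.03 there against 0.13 in the main fit, and mmu-miR-741-3p went from 0.19 to -0.005. The 3p arms of miR-743a and miR-743b, which carry the shared seed, had log2 fold changes nearer 0, at -0.18 ± 0.18 for mmu-miR-743a-3p and -0.05 ± 0.20 for mmu-miR-743b-3p. These were -0.40 and -0.30 with library totals and -0.34 and -0.48 with the GC trend removed, and neither arm passed in these fits.

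mmu-miR-878-5p had 2363, 2802, 2818 and 3220 CPM in Ago413+/+ RS and 4304, 3586, 5223 and 2674 CPM in Ago413-/- RS. The groups overlap through Ago413-/- replicate 4. The log2 fold change was 0.65 ± 0.22 (edgeR adjusted p = 0.0457), and the adjusted p was above 0.05 in 7 of the 8 fits that left out 1 library (0.0526 to 0.347 in these 7), at 0.174 with library totals, at 0.350 with only Ago413+/+ RS replicates 3 and 4 and at 0.545 with the GC trend removed. mmu-miR-742-5p had 15, 25, 4 and 40 counts in Ago413+/+ RS and 9, 7, 8 and 6 in Ago413-/- RS, a log2 fold change of -0.95 ± 0.44 (edgeR adjusted p = 0.128). Here too it met the filter of 10 counts only through libraries of the other genotypes. With the GC trend removed mmu-miR-742-5p passed both thresholds (-1.32, edgeR adjusted p = 0.0342). The log2 fold change of mmu-miR-742-3p was 0.85 ± 0.33 (edgeR adjusted p = 0.0719). The log2 fold changes of mmu-miR-741-3p (0.19 ± 0.19), mmu-miR-741-5p (0.33 ± 0.27) and mmu-miR-878-3p (-0.23 ± 0.33) did not pass either (edgeR adjusted p 0.489, 0.381 and 0.644), and the sign of mmu-miR-741-3p turned with the scaling (-0.04 with library totals).

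The median log2 fold change of the members in Ago413-/- RS was -0.11, against 0.13 over all 426 miRNAs. Both medians depended on the scaling. With library totals the background was -0.09, and the log2 fold change of every member was lower as well. The members then ran from -1.18 (mmu-miR-742-5p) to 0.63 (mmu-miR-742-3p), against -0.95 to 0.85 with TMM. The genotypes did not overlap in 3 of the 10 members (mmu-miR-743a-3p, mmu-miR-743a-5p and mmu-miR-743b-5p) and in 101 of 426 miRNAs, 23.7%. The members took 3.998% ± 0.342 of counts in Ago413-/- RS and 4.59% ± 0.360 in Ago413+/+ RS (SD, n = 4). Some markers of other testis cells were higher in Ago413-/- RS, and others were not. The gonadal somatic miRNAs miR-202-5p and miR-202-3p summed to 2500 to 8176 CPM in Ago413+/+ RS and 9034 to 15979 CPM in Ago413-/- RS, and 1 of these 2 passed as higher. Of the blood markers 2 of 2 tested passed as higher (summed 49.2 to 501 CPM against 103 to 4813 CPM) and of the endothelial markers 1 of 2 (511 to 1990 CPM against 1951 to 5858 CPM). By contrast, 0 of 2 peritubular, 0 of 3 spermatogonial and 0 of 3 germ cell markers passed. The log2 fold changes of the 2 peritubular markers were -1.74 and -0.14. Those of the spermatogonial markers ran from -0.42 to 0.85 and those of the germ cell markers from 0.16 to 0.98. No defining marker of these lists other than miR-144-3p and miR-126a-5p was at 0 in any RS library. The part of these cells in the members' values was not tested.

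The ratio of the arms of a hairpin does not depend on library size, and it was tested over all hairpins with both arms counted. In Ago413-/- RS the ratio 5p over 3p was lower for miR-742 and miR-743b, 2 of the 5 hairpins, against 23 of 104 hairpins, 22.1%, of which 7 were lower. The median change over all 104 hairpins was 0.39, toward 5p, so 0 was not the middle of the background. For miR-742 the log2 ratio was 0.10, -0.30, -0.29 and 0.23 in the Ago413+/+ RS libraries and -1.18, -1.65, -2.14 and -1.91 in the Ago413-/- RS libraries, without overlap. The change was -1.65 ± 0.45 (limma adjusted p = 0.0110), and the 5p share went from 48.7% ± 4.91 to 22.8% ± 5.33 (SD, n = 4). For miR-743b the log2 ratio was -2.23, -2.68, -2.30 and -2.61 in Ago413+/+ RS and -3.52, -3.07, -3.23 and -3.45 in Ago413-/- RS, also without overlap. The change was -0.86 ± 0.24 (limma adjusted p = 0.0124), and the 5p share went from 15.5% ± 2.02 to 9.17% ± 1.20.

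Each of these changes passed in all 8 fits without 1 library and with only Ago413+/+ RS replicates 3 and 4 as controls. With the GC trend removed, miR-742 still passed (-2.01, limma adjusted p = 0.00230) and miR-743b did not (-0.52, adjusted p = 0.132). miR-742 rests on few reads, with 4 to 40 counts per library and arm in RS of these genotypes. Its 5p arm was under 10 counts in every Ago413-/- RS library, so the hairpin was tested only through the 5p counts of the other genotypes. The other hairpins did not pass: the difference in log2 ratio was -0.56 ± 0.26 for miR-743a (limma adjusted p = 0.117), 0.73 ± 0.36 for miR-878 (adjusted p = 0.133) and 0.10 ± 0.31 for miR-741 (adjusted p = 0.843). These stand beside the median of 0.39 over all hairpins. The miR-878 log2 ratio was 0.05 and 0.43 in Ago413+/+ RS replicates 1 and 2, the libraries that departed along GC content, and 1.64 and 1.51 in replicates 3 and 4. Against replicates 3 and 4 alone its difference was 0.07.

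In Ago413-/- SP no member's ratio passed, and 5 of 100 hairpins did, 5%, or 0 without replicate 2. For miR-741 the log2 ratios were -6.22, -6.42, -6.40 and -6.09 in Ago413+/+ and -6.78, -8.30, -7.10 and -8.05 in Ago413-/-. They did not overlap, and the difference was -1.27 ± 0.47 (limma adjusted p = 0.195), or -1.03 without replicate 2. For miR-743a the difference was 0.40 ± 0.60 with Ago413-/- SP replicate 2 and -0.29 without it.

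**Figure D3:**
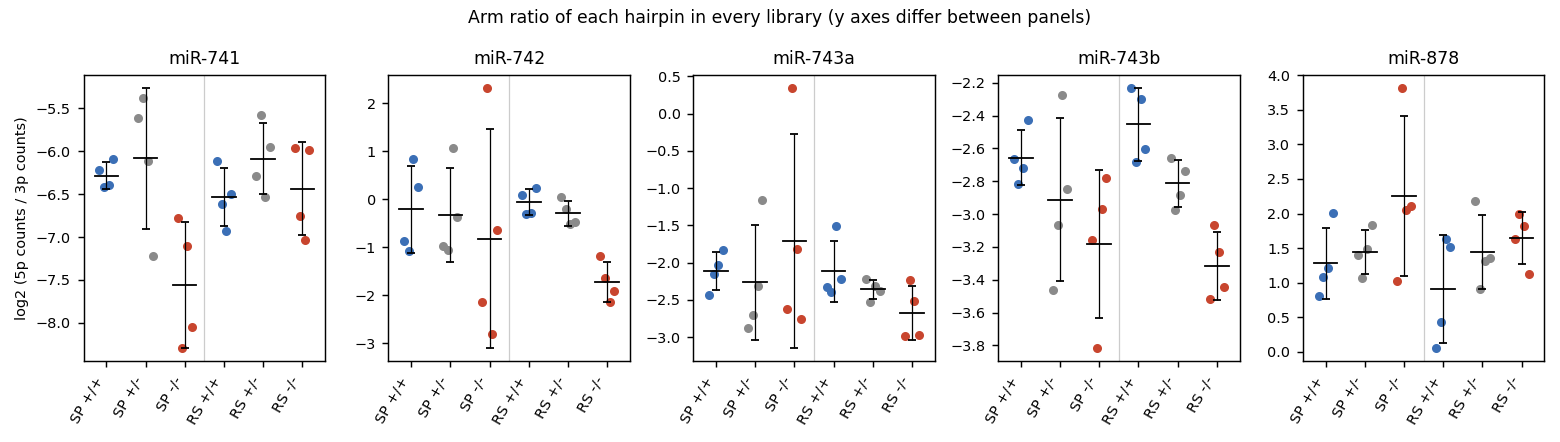
Log2 ratio of 5p to 3p counts of each hairpin in the 24 libraries, with a different y axis in each panel. Points are libraries in replicate order and black lines the mean ± SD of 4 libraries. In round spermatids the Ago413-/- points (red) of miR-742 and miR-743b lie below all Ago413+/+ points (blue), and a single Ago413-/- spermatocyte library, replicate 2, is the high point of miR-742, miR-743a and miR-878.

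The Ago413+/- libraries show whether a single copy of the deletion had an effect. None of the 10 members passed the test in either cell type, where 0 of 404 miRNAs passed in SP, 0%, and 0 of 426 in RS, 0% (edgeR; DESeq2 passed 0 of 404 in SP and 8 of 426 in RS). At an unadjusted p under 0.05, edgeR had 0 members of 13 miRNAs in SP and 1 member, mmu-miR-742-3p, of 68 miRNAs in RS. mmu-miR-743b-5p had 884, 875, 1174 and 1169 CPM in Ago413+/- SP, all below the Ago413+/+ SP libraries. It was the only member without overlap there, where 10 of 404 miRNAs had none, 2.48%. Ago413-/- SP replicate 4, at 915 CPM, lay within these values and the other 3 Ago413-/- SP libraries below them. The log2 fold change of mmu-miR-743b-5p in Ago413+/- SP was -0.42 ± 0.33 (edgeR adjusted p = 0.9998). In RS it was -0.12 ± 0.24, and the 1117 to 1537 CPM of Ago413+/- lay above every Ago413-/- RS library. The difference between Ago413+/- and Ago413-/- was not tested. These comparisons share their Ago413+/+ libraries with those of Ago413-/-.

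Whether the effect of Ago413-/- differs between the cell types was tested as an interaction in the fit of all 24 libraries. None of the 10 members and 0 of 450 miRNAs passed on the adjusted p, 0% (edgeR; 1 member of 55 miRNAs at an unadjusted p under 0.05, and 0 of 450 by DESeq2). The member was mmu-miR-741-5p, with 1.04 ± 0.45 (adjusted p = 0.381), RS minus SP. For mmu-miR-743b-5p the interaction was 0.19 ± 0.40 (edgeR adjusted p = 0.833) and for mmu-miR-743a-5p -0.59 ± 0.40 (adjusted p = 0.455).

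The rest of the family gives the setting of these values. Of its 30 other rows 25 were tested. In Ago413-/- SP 0 of 25 passed, with a median log2 fold change of -0.17 and a range from -1.48 to 1.54. By edgeR 7 of the 25 had an unadjusted p under 0.05, against 103 of all 404 miRNAs. Without replicate 2 the median was -0.25 and the range -1.15 to 1.05, and again 0 of 25 passed (7 at an unadjusted p under 0.05, against 93 of 403 miRNAs). In Ago413-/- RS 2 of 25 passed as higher and 2 as lower, with a median of -0.003, where 69 of all 426 miRNAs passed, 16.2%. The most abundant of these in Ago413+/+ SP were mmu-miR-881-3p, mmu-miR-871-3p and mmu-miR-465c-5p, at 86176, 30093 and 26368 CPM, and their log2 fold changes in Ago413-/- SP were 0.31, 0.32 and -0.17 with replicate 2 and 0.38, -0.081 and -0.29 without it, so the sign of mmu-miR-871-3p turned. miR-465c has near-identical copies in the cluster, which share reads.

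Along the cluster, most miRNAs of the span from miR-878 to miR-743a had a log2 fold change below 0 in Ago413-/- SP. Of the 19 tested there, 18 had a log2 fold change below 0, with mmu-miR-741-3p the exception, and the 9 that are not members had a median of -0.71. Of the 13 tested that lie upstream of miR-878 in the cluster, 3 were below 0 and the median was 0.44. The 13 include mmu-miR-465a-3p, mmu-miR-465b-3p and mmu-miR-465c-3p, whose values were nearly equal. These were 0.441, 0.441 and 0.445, or -0.255, -0.255 and -0.252 without Ago413-/- SP replicate 2. In Ago413-/- RS they were -0.565, -0.565 and -0.563, so the upstream counts are not of 13 separate signals. The contrast with the upstream part rests on Ago413-/- SP replicate 2: without it 16 of 19 were below 0 in the span (median -0.59) and 8 of 13 upstream (median -0.08). In Ago413-/- RS the counts were 10 of 19 in the span and 9 of 13 upstream. This split of the cluster was chosen after the values were seen, few of these changes passed a test, and the arms of a hairpin and neighbouring hairpins share libraries, so it is a description.

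**Figure D4:**
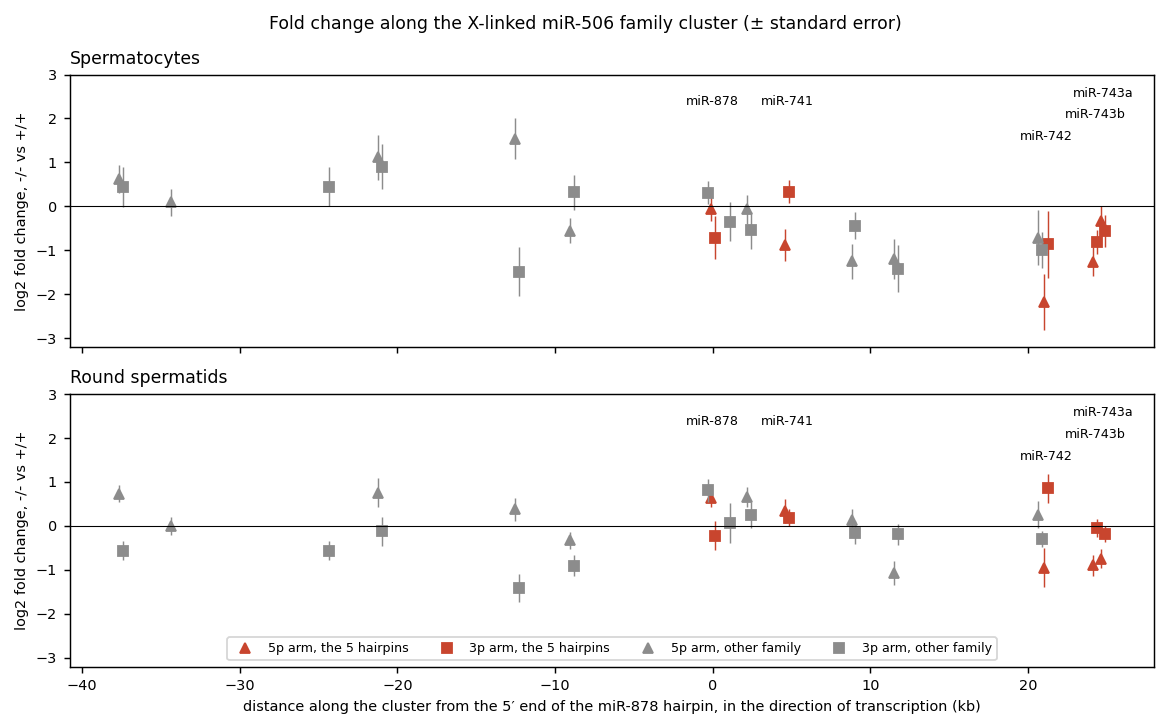
Log2 fold change ± standard error of Ago413-/- over Ago413+/+ by distance from the 5′ end of the miR-878 hairpin (kb, in the direction of transcription) in spermatocytes (top) and round spermatids (bottom). Red marks the 5 hairpins and grey other family hairpins of the cluster, triangles are 5p and squares 3p, and arms with several gene copies are left out. To the right of miR-878 the spermatocyte points lie below 0 except mmu-miR-741-3p.

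Across the 24 libraries, the miRNAs whose level was most like the summed log2 CPM of the members were mmu-miR-883b-3p (Pearson r = 0.902), mmu-miR-883a-3p (0.892), mmu-miR-883a-5p (0.841), mmu-miR-29a-3p (0.839) and mmu-miR-295-3p (0.831), of 440 compared. Without Ago413-/- SP replicate 2 these values were 0.776, 0.747, 0.622, 0.656 and 0.604. The first 3 come from hairpins inside the span. For mmu-miR-741-3p, the most abundant member, the closest were mmu-miR-465d-5p (0.805), mmu-miR-146b-5p (0.781) and mmu-let-7f-5p (0.745). The libraries share depth and scaling, and these values are descriptions.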

How the data were processed

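The authors trimmed small RNA reads with Trim Galore (reads under 10 nt removed), mapped them to the mouse miRNAs of miRBase with the miRDeep2 quantifier and deposited raw counts per mature miRNA, without normalization. All 24 columns were used, 4 libraries per cell type and genotype as the labels give them. Counts were fitted with edgeR 4.0.16 in R 4.3.3 (TMM, quasi-likelihood test, two-sided, Benjamini-Hochberg over all miRNAs tested). A miRNA entered a fit if it reached 10 counts in 3 or more of its libraries. The 3 genotypes of a cell type formed 1 fit, and all 24 libraries formed the fit for the cell types and the interaction. A miRNA passed with an adjusted p under 0.05 together with a log2 fold change of 1 or more in size, the interaction and the arm ratio at the adjusted p alone. CPM are TMM-scaled over the 24 libraries. Log2 arm ratios (pseudocount 0.5) were tested with limma 3.58.1 over all hairpins with both arms counted.

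Intervals are at 95% (Wilson for shares) and, like the floor of 3 counts for a miRNA at 0, cover counting error only, since PCR reads without molecular identifiers are not independent molecules. The fits, including those with the GC offset, were tested on simulated counts. Alternatives were DESeq2 1.42.0, RLE scaling, library totals, TMM without the family, a stricter filter (10 counts in every library), no filter, the adjusted p alone, miR-743a and miR-743b summed, only the groups compared, the replicate block, a pseudocount of 5 and leaving out each library. An offset for GC content (loess on the mature sequences, 373 of 450 miRNAs matched) and Ago413+/+ RS replicates 3 and 4 alone were added after seeing the data. The miRNAs named were the 10 members, the 3 most abundant other family rows and those most correlated with the members. The members and lists were chosen with earlier results of these data known.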

Additional observations from a re-analysis of the deposited data

Results flagged for a closer look

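Within each group of 4 libraries, a library was marked where its gap to the nearest other value as a share of the group's range was above Dixon's critical value at 95%. Of 96 sets of 4 libraries tested (the 10 members, the arm ratios of the 5 hairpins and the members' summed share, each in the 6 groups), 3 were marked, where chance gives about 1 in 20, or 4.8. mmu-miR-743a-3p was low in Ago413+/- SP replicate 4, at 6566 CPM against 9039 to 9064 CPM in the other 3. mmu-miR-878-5p was low in Ago413+/- RS replicate 3, at 2694 CPM against 3303 to 3359 CPM. The members' summed share of counts was low in Ago413-/- RS replicate 2, at 3.49% (95% Wilson interval 3.43% to 3.54%) against 4.14% to 4.20%.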

How the results depend on the processing

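In Ago413-/- SP 1 member passed, mmu-miR-743b-5p. The count was 2 with DESeq2, 3 with library totals, 2 without a filter on low counts, and 0 with miR-743a and miR-743b summed, with only the groups compared and with the replicate block, and it ran from 0 to 1 over the fits without 1 library. Over all miRNAs 18 of 404 passed, against 61 of 404 with DESeq2, 55 of 1059 without the filter and 25 of 404 with library totals. With only the groups compared 14 of 382 passed, and 11 to 19 without 1 library, where 382 to 403 were tested. In Ago413-/- RS, where no member passed, the count was 1 with library totals, with TMM without the family, without a filter, with at least 10 counts in every library and with only the groups compared, 3 on the adjusted p alone, 3 with the GC offset, 2 with Ago413+/+ replicates 3 and 4 only, and 0 to 2 without 1 library. The 69 of 426 miRNAs that passed there (32 higher) became 42 of 265 with at least 10 counts in every library. With the GC offset they became 46 of 352 (10 higher). Of the miRNAs that passed, the number higher was 16 of 68 with library totals, 18 of 69 with TMM without the family and 21 of 75 without a filter (1109 tested). It was 21 of 71 with the summed reads, 15 of 64 with only the groups compared and 19 of 73 with replicates 3 and 4 only. Without 1 library the count of miRNAs that passed ran from 51 (14 higher, without Ago413-/- replicate 1) to 74 (35 higher, without Ago413-/- replicate 2), and the fewest higher were 9 of 62, without Ago413+/+ replicate 1. At least 10 counts in every library kept 8 members in RS. For the arm ratio in RS, 2 hairpins passed, and 1 did with the GC offset. With at least 10 counts of each arm in every library 1 passed, miR-743b, of 4 tested, since that filter removed miR-742. As a share of counts outside the family, the members took 6.70%, 5.88% and 5.27% in Ago413+/+, Ago413+/- and Ago413-/- SP, and 6.68%, 6.77% and 5.74% in RS. The cause of these shifts was not tested.

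Directions turned for these log2 fold changes. In Ago413-/- RS mmu-miR-741-3p was -0.044 with library totals, -0.033 without a filter, -0.032 with only the groups compared, -0.0050 with the summed reads, -0.15 with the GC offset and -0.25 with replicates 3 and 4 only, mmu-miR-741-5p was -0.022 with the GC offset and mmu-miR-878-3p 0.28 (from -0.23) with replicates 3 and 4 only. In Ago413-/- SP mmu-miR-878-5p was 0.16 with the GC offset. In Ago413+/- SP mmu-miR-741-3p was 0.021 with DESeq2, 0.022 with RLE scaling, 0.016 with only the groups compared and 0.027 with the summed reads, and mmu-miR-878-5p was 0.016 with DESeq2, 0.017 with RLE scaling and 0.010 with the summed reads. In Ago413+/- RS mmu-miR-878-3p was 0.30 (from -0.34) with replicates 3 and 4 only. Between the cell types, with library totals, mmu-miR-743a-3p was -0.037, mmu-miR-743a-5p -0.042 and mmu-miR-743b-5p -5.40e-05.

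Leaving out 1 library turned further directions, within these ranges. In Ago413-/- SP mmu-miR-878-5p ran from -0.23 to 0.019, and in Ago413-/- RS mmu-miR-741-3p from -0.12 to 0.31 and mmu-miR-743b-3p from -0.35 to 0.025. In Ago413+/- SP mmu-miR-741-3p ran from -0.19 to 0.13, mmu-miR-741-5p from -0.038 to 0.46, mmu-miR-742-3p from -0.17 to 0.79, mmu-miR-742-5p from -0.56 to 0.18, mmu-miR-743a-3p from -0.24 to 0.074, mmu-miR-743b-3p from -0.36 to 0.028 and mmu-miR-878-5p from -0.28 to 0.076. In Ago413+/- RS mmu-miR-741-3p ran from -0.20 to 0.080 and mmu-miR-743a-3p from -0.11 to 0.052. Between the cell types mmu-miR-741-3p ran from -0.032 to 0.24, mmu-miR-743a-3p from -0.0083 to 0.12, mmu-miR-743a-5p from -0.096 to 0.17, mmu-miR-743b-3p from -0.24 to 0.0047 and mmu-miR-878-5p from -0.012 to 0.20. For arm ratios, miR-742 ran from -1.65 to 0.055 and miR-743a from -0.29 to 0.75 in Ago413-/- SP, miR-741 from -0.057 to 0.30 in Ago413-/- RS, and miR-742 from -0.14 to 0.50 and miR-743a from -0.21 to 0.091 between the cell types.

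Same-numbered SP and RS libraries of a genotype deviated together with r from -0.16 to 0.42, over 0.1 in 6 of 12 pairs, and 4 of 12 correlated best with their own number, and between Ago413+/+ and Ago413-/- SP 3 of 4 pairs were over 0.1 and 3 of 4 were best with their own number, the exception being replicate 1 (r = -0.12). The sample names of most same-numbered SP and RS libraries are consecutive, but no label ties the numbers to mice. These correlations cannot decide whether the libraries are paired, and the main tests treated them as sharing only a number. Blocking on genotype and number left 0 of 450 miRNAs passing between the cell types and 0 of 450 in the interaction. With the replicate block, members passing in Ago413-/- SP went from 1 to 0 (mmu-miR-743b-5p, -1.32, edgeR adjusted p = 0.0621) and all miRNAs from 18 to 14, and in RS all miRNAs went from 69 to 62.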
